A study of Rattus norvegicus and Ovis aries with 113 samples.

Results

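The genes described here encode 35 secreted signalling peptides and acidic secretory-vesicle proteins: 28 neuropeptide or peptide-hormone precursors (NPY, SST, VIP, CCK, CRH, CORT, PNOC, PDYN, GAL, NTS, ADCYAP1, UCN, NMB, GRP, RLN3, TRH, HCRT, PMCH, POMC, AGRP, CARTPT, OXT, AVP, NMU, NMS, NPPC, NPB and APLN) and 7 granins or granin-like proteins (SCG2, SCG3, SCG5, VGF, CHGA, CHGB and PCSK1N). They were matched from a list of gene symbols, ignoring case; the rule itself uses no measured value. All 35 were found among the 31304 genes of the sheep count table and among the 38675 genes of the rat count table. Neuropeptides are made as long precursors, sorted into dense-core vesicles, cut by prohormone convertases and released on stimulation to act on G-protein-coupled receptors. Granins are the matrix proteins of the same vesicles, and several are themselves cut into peptides. In the brain some of these peptides mark classes of cortical inhibitory neurons (SST, VIP, NPY), some mark striatal projection neurons (PDYN), and others are made by small groups of hypothalamic cells (OXT, AVP, HCRT, PMCH, POMC, AGRP).

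The study measured RNA in brain and in germ-line samples of 2 species without any treatment. From each of 5 post-pubertal male sheep (numbered 687, 688, 690, 694 and 699), 10 brain regions of the same hemisphere and 1 sperm sample were sequenced, so that each region had 5 libraries, 1 per animal. From 15 post-pubertal male Sprague Dawley rats, an outbred laboratory strain, whole brain and seminal fluid (labelled sperm) were sequenced, and from 14 female Sprague Dawley rats whole brain and ovary, which gave 58 rat libraries beside the 55 of sheep. Sheep libraries were made with a Kapa stranded mRNA kit from TRIzol extracts and rat libraries with a Watchmaker stranded mRNA kit from Zymo extracts, so species and preparation cannot be told apart and no level was compared between species. The 10 sheep regions were basal ganglia, cerebellum, entorhinal cortex, frontal cortex, hippocampus, motor cortex, prefrontal cortex, pons, posterior parietal cortex and visual cortex; the frontal, motor, prefrontal, posterior parietal and visual areas are called the 5 neocortical areas below. Every library is a separate tissue sample, but all samples of 1 sheep come from 1 animal, and p-values measure the spread between these samples only.

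Total counts, in units of 1000000, were 46.7 to 72.4 per sheep brain library, 13.7 to 65.1 per sheep sperm library, 38.2 to 119.2 per rat brain library, 50.5 to 60.3 per ovary library and 13.7 to 65.1 per rat sperm library. Levels are given as CPM, counts scaled to a library of 1000000 with trimmed-mean (TMM) factors within each comparison, and no ranking of one gene against another is given because exon lengths were not used here. Markers of the labelled regions were present: all 5 striatal markers were present in basal ganglia (sum 1147 to 3106 CPM, against at most 90.6 in any other region), all 5 cerebellar markers in cerebellum (2064 to 2595 CPM) and all 7 midbrain and hindbrain markers in pons (6.53 to 84.7 CPM). Pons of sheep 687, the lowest of these, lay within the range of basal ganglia (up to 16.7 CPM) and cerebellum (up to 11.7 CPM). Some libraries stood apart: motor cortex of sheep 687 held 795 CPM of choroid plexus markers against 5.28 to 65.6 in the other 4 motor cortex libraries, pons of sheep 694 held 1085 CPM of them, and the ribosomal gene Rn45s took 29.9% of counts in the brain library of rat 1 and 28.4% in that of rat 4. In these bulk libraries, fewer cells of a type and less RNA per cell cannot be told apart.

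In 5 of the rat genes the RefSeq promoter window holds the full palindrome TGACGTCA, the cAMP response element to which CREB-family factors bind. A window is 300 bases, from 250 before to 50 after the annotated start, in build GRCr8. The sequences are shown because this element links otherwise different members of the set. Each is printed 5′ to 3′ on the gene's strand as 30 bases with the element in capitals.

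Cartpt (chr2:32991359-32991388, minus strand): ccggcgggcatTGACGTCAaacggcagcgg

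Ucn (chr6:30957965-30957994, plus strand): cagttcttcgcTGACGTCAgtcggagctgt

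Scg2 (chr9:88256971-88257000, minus strand): ggctgagccggTGACGTCAgcgaggaatgc

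Sst (chr11:90461537-90461566, plus strand): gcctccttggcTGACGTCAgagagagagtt

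Vgf (chr12:25277092-25277121, minus strand): tgaatgaacatTGACGTCAatggggcgggg

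The element began 142, 110, 123 and 90 bases before the annotated start in Cartpt, Ucn, Scg2 and Vgf, and just after it in Sst. A window was available for 28 of the 35 rat genes. TGACGTCA, which reads the same on both strands, was in 5 of these 28 (17.9%) and in 612 of all 33469 promoter windows of that length (1.83%). The shorter TGACG, searched on both strands and contained in every TGACGTCA, was in 15 of 28 (53.6%) and in 7097 of 33469 (21.2%). The Cartpt, Scg2 and Vgf windows lie inside the annotated span of the gene, since the start used is that of a shorter transcript. Of the 5 genes, Cartpt, Scg2, Sst and Vgf were detected in rat brain and Ucn was not. A match describes letters in the window, not a bound site.

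Nearly all members that could be tested differed among the 10 sheep brain regions. Of the 35 genes, 30 had enough counts to be tested and 5 (GAL, RLN3, PMCH, OXT and NMS) did not. Levels of 28 of the 30 differed among the 10 regions at an adjusted p under 0.05 (edgeR quasi-likelihood F-test, Benjamini-Hochberg adjustment over 21147 genes), against 76.7% of all genes tested; the exceptions were POMC (adjusted p = 0.094) and HCRT (adjusted p = 0.078). AGRP passed with all 5 sheep and missed the threshold without sheep 699 (adjusted p = 0.088). Each region was then compared with the mean of the other 9 in the same model, and a gene was called higher or lower at an adjusted p under 0.05 and a log2 fold change of at least 1 in size. These 10 comparisons share libraries, so their values are given side by side and are not independent.

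Cerebellum and pons had the most called members, and most of these were lower. In cerebellum 3 of 30 members were higher and 18 lower (background 28.8% of all genes called, 9.35% higher and 19.5% lower), with a median log2 fold change of -1.82 over the 30 against -0.04 over all genes. In pons 5 were higher and 11 lower (18.7%, 9.66% higher and 9.02% lower), and in basal ganglia 6 were higher and 8 lower (10.3%, 5.54% higher and 4.75% lower). The cortical areas ran the other way: 9 members were higher and 0 lower in frontal cortex (2.77%, 2.36% higher and 0.402% lower) and 9 and 0 in motor cortex (1.64%, 1.51% and 0.128%). Prefrontal cortex had 5 and 0 (2.46%, 1.75% and 0.705%), posterior parietal cortex 6 and 1 (2.66%, 2.2% and 0.454%), visual cortex 5 and 0 (2.12%, 1.87% and 0.251%) and entorhinal cortex 2 and 0 (2.24%, 2.23% and 0.0142%). Hippocampus had 3 higher and 0 lower (4.62%, 3.46% and 1.15%). That made 91 calls, 53 higher and 38 lower.

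**Figure D1:**
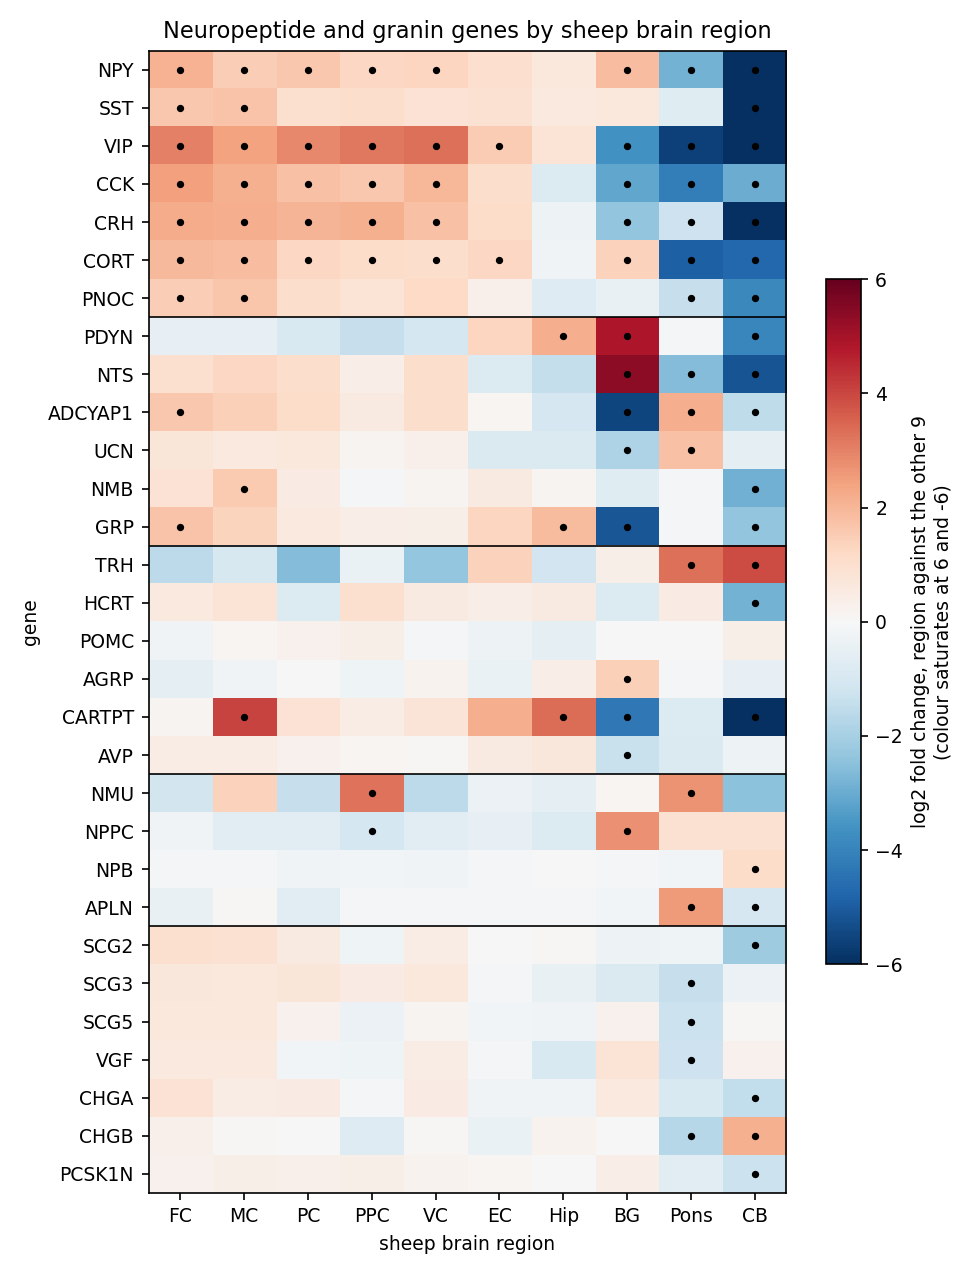
Log2 fold change of each of the 10 sheep brain regions against the mean of the other 9, for the 30 genes tested, grouped by role. A dot marks a call, and the colour scale is capped at both ends. GAL, RLN3, PMCH, OXT and NMS were not tested and are not shown. Basal ganglia stand out for NTS and PDYN, cerebellum for TRH and CHGB, and the cortical columns for VIP, CCK and CRH.

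VIP, CCK, CRH and NPY were higher in each of the 5 neocortical areas and lower in cerebellum and pons. VIP, the vasoactive intestinal peptide of a class of cortical interneurons, ranged over 12.6, 42.2 and 83.9 CPM (lowest, median and highest) in the 25 neocortical libraries. Values for single regions are given below in the order of sheep 687, 688, 690, 694 and 699. VIP measured 21.9, 45.6, 83.9, 42.4 and 58.1 CPM in visual cortex and 60.7, 47.2, 41.7, 42.3 and 42.2 CPM in posterior parietal cortex. It measured 29.6, 43.0, 56.4, 28.2 and 53.6 CPM in frontal cortex, 30.9, 43.1, 44.2, 41.7 and 34.9 CPM in prefrontal cortex and 12.6, 35.5, 31.4, 32.7 and 34.5 CPM in motor cortex. Sheep 687 had the lowest motor cortex value, and the 5 areas overlapped. VIP was higher than in the other 9 regions in each of them, most in visual cortex (log2 fold change 3.30, SE 0.28, adjusted p = 1.8e-11) and least in motor cortex (log2 fold change 2.43, SE 0.30, adjusted p = 4.2e-07), and also in entorhinal cortex, at 23.2, 17.4, 16.0, 8.02 and 19.1 CPM (log2 fold change 1.53, SE 0.32, adjusted p = 0.0022). In basal ganglia VIP measured 0.594, 0.587, 0.837, 1.03 and 0.240 CPM, in pons 0, 0.0184, 0.894, 0.0160 and 0.0362 CPM and in cerebellum 0.219, 0, 0, 0 and 0 CPM. These 3 groups lay below every neocortical library, with log2 fold changes of -3.64 (adjusted p = 1.5e-07), -5.60 (adjusted p = 1.3e-10) and -7.95 (adjusted p = 3.3e-13). With sheep 687 left out, no remaining cerebellar library had a VIP count, and the fit then returned an adjusted p of 1 for basal ganglia (log2 fold change -3.16) and for pons (-4.83).

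CCK, cholecystokinin, which both pyramidal cells and a class of basket cells make, ranged over 31.7, 177 and 336 CPM in the neocortical libraries. It measured 223, 169, 336, 188 and 209 CPM in frontal cortex, 31.7, 320.3, 189.8, 177 and 204 CPM in motor cortex and 265, 167, 130.0, 139 and 146 CPM in visual cortex. In prefrontal cortex CCK measured 121, 103, 179, 198 and 124 CPM and in posterior parietal cortex 203, 148, 66.5, 63.2 and 185 CPM. The lowest of these 25 values was that of motor cortex of sheep 687. CCK was higher in all 5 areas, from log2 fold change 1.62 (adjusted p = 0.0013) in posterior parietal to 2.46 (adjusted p = 7.2e-07) in frontal cortex. In pons CCK measured 0.683, 1.64, 2.21, 12.7 and 1.07 CPM, with sheep 694 far above the other 4, and was lower there (log2 fold change -4.13, SE 0.55, adjusted p = 3.5e-08); it was lower also in basal ganglia (-3.10) and cerebellum (-2.99).

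CRH, corticotropin-releasing hormone, which interneurons of the cortex make as well as the hypothalamus, had 6.97, 6.17, 11.7, 8.62 and 11.3 CPM in frontal cortex, 0.947, 8.88, 12.0, 11.1 and 10.4 CPM in motor cortex and 11.5, 7.95, 7.03, 5.15 and 9.90 CPM in posterior parietal cortex. It had 6.78, 11.8, 7.05, 7.19 and 6.56 CPM in prefrontal and 7.75, 6.51, 5.82, 7.32 and 5.35 CPM in visual cortex. In cerebellum CRH had 0.0469, 0, 0, 0.0150 and 0.0313 CPM, under every library of the other 9 regions. Differences were 2.24 (adjusted p = 4.8e-05), 2.19 (adjusted p = 1.3e-04), 2.12 (adjusted p = 1.4e-04), 2.03 (adjusted p = 3.0e-04) and 1.74 (adjusted p = 0.0023) in the 5 areas in that order, and -7.5 (adjusted p = 3.4e-10) in cerebellum. CRH was lower also in basal ganglia (-2.39, adjusted p = 9.3e-04) and pons (-1.24, adjusted p = 0.04); the pons call was lost without sheep 687, 694 or 699 (log2 fold changes -0.92, -1.06 and -1.09, adjusted p = 0.17, 0.13 and 0.1).

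NPY, neuropeptide Y, measured 46.2, 36.3, 83.9, 36.7 and 62.6 CPM in frontal cortex, 42.1, 34.4, 41.9, 41.8 and 37.0 CPM in prefrontal cortex and 32.5, 19.8, 26.1, 31.9 and 52.2 CPM in visual cortex. In posterior parietal cortex NPY measured 54.9, 30.5, 19.1, 23.4 and 30.1 CPM and in basal ganglia 42.6, 30.3, 32.1, 55.6 and 69.5 CPM. Basal ganglia therefore lay within the cortical range. NPY was higher in frontal (2.08, adjusted p = 2.6e-05), prefrontal (1.60, adjusted p = 0.0018), motor (1.48, adjusted p = 0.0067), visual (1.29, adjusted p = 0.016) and posterior parietal cortex (1.24, adjusted p = 0.015) and in basal ganglia (1.84, adjusted p = 2.0e-05). Cerebellum had 0.282, 0, 0.0297, 0.0897 and 0 CPM and pons 0.769, 0.627, 1.04, 9.40 and 0.344 CPM. No cerebellar library reached the lowest value of any other region, while pons of sheep 694 stood above the other 4 pons libraries; both regions were lower, at -8.31 (adjusted p = 4.8e-13) and -2.85 (adjusted p = 5.9e-06). The motor cortex call was lost without sheep 688 or 690 (log2 fold changes 1.39 and 1.48, adjusted p = 0.056 and 0.051), the visual cortex call without sheep 690 or 699 (log2 fold changes 1.29 and 1.00, adjusted p = 0.086 and 0.1) and the posterior parietal call without sheep 687, 688 or 690 (log2 fold changes 1.08, 1.17 and 1.31, adjusted p = 0.088, 0.063 and 0.054).

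CORT, cortistatin, was higher in basal ganglia as well as cortex, and its relative SST, somatostatin, was not called in basal ganglia. SST measured 182, 183, 159, 252 and 331 CPM in motor cortex and 0.673, 0.198, 0.371, 0.718 and 1.46 CPM in cerebellum. It was higher in motor (log2 fold change 1.70, SE 0.41, adjusted p = 0.0095) and frontal cortex (log2 fold change 1.60, SE 0.41, adjusted p = 0.011) and lower in cerebellum (log2 fold change -7.57, SE 0.83, adjusted p = 1.3e-10), and was not called in basal ganglia (0.63, adjusted p = 0.32) or pons, where values ran from 0.214 CPM in sheep 687 to 195 CPM in sheep 690. The SST call in motor cortex was lost without sheep 688 or 694 (log2 fold changes 1.69 and 1.60, adjusted p = 0.059 and 0.098) and that in frontal cortex without sheep 694 (log2 fold change 1.65, adjusted p = 0.058). CORT measured 8.89, 8.37, 20.9, 9.69 and 13.4 CPM in frontal, 8.70, 13.5, 10.2, 10.7 and 15.3 CPM in motor and 6.80, 7.56, 8.32, 8.34 and 7.98 CPM in prefrontal cortex. It measured 13.1, 6.70, 5.66, 3.57 and 7.51 CPM in posterior parietal, 7.99, 5.65, 7.16, 6.54 and 8.05 CPM in visual and 9.65, 12.0, 5.15, 7.04 and 5.20 CPM in entorhinal cortex. In basal ganglia CORT had 7.56, 7.81, 6.04, 9.75 and 11.7 CPM, inside the cortical range, and in pons 0.0641, 0.111, 0.347, 0.144 and 0.163 CPM. CORT was higher in these 7 regions other than pons, from 1.06 (adjusted p = 0.0013) in visual to 1.94 (adjusted p = 7.3e-09) in frontal cortex with 1.37 (adjusted p = 1.9e-06) in basal ganglia, and lower in pons (-4.92, adjusted p = 4.1e-14) and cerebellum (-4.69, adjusted p = 9.1e-15). The entorhinal call was lost without sheep 688 (log2 fold change 0.97, adjusted p = 0.023) and the posterior parietal call without sheep 687 (log2 fold change 0.77, adjusted p = 0.054). PNOC, the nociceptin precursor, ranged over 2.34, 13.5 and 24.3 CPM in the neocortical libraries and 0.107, 7.29 and 24.3 CPM in all 50. It was higher in motor (1.65, adjusted p = 0.0044) and frontal cortex (1.46, adjusted p = 0.0095) and lower in cerebellum (-3.86, adjusted p = 3.7e-07) and pons (-1.39, adjusted p = 0.015). The motor call for PNOC was lost without sheep 688 or 690 (log2 fold changes 1.53 and 1.62, adjusted p = 0.057 and 0.051), the frontal call without sheep 690 (log2 fold change 1.24, adjusted p = 0.14) and the pons call without sheep 687, 688, 690 or 699 (log2 fold changes -1.08, -1.22, -1.29 and -1.25, adjusted p = 0.053, 0.078, 0.069 and 0.064).

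Among the 5 neocortical areas no member passed the test. The edgeR quasi-likelihood F-test over these areas called 0 of 30 members and 4 of 21147 genes (0.0189%); 5 members (NMU, NMB, CARTPT, SCG5 and CORT) had an unadjusted p under 0.05, and the lowest adjusted p was 0.17 for NMU. GABA neuron markers, which bear on the same cells, summed to 225 to 297 CPM in frontal, 166 to 376 in motor, 210.5 to 311 in prefrontal, 209.9 to 323 in posterior parietal and 218 to 292 CPM in visual cortex, and to 23.1 to 101 CPM in pons; 4 of 4 markers passed 1 CPM in the cortical areas and 3 of 4 in pons. In the motor cortex library of sheep 687, where VIP, CCK, CRH and PNOC were lowest, they summed to 166 CPM, the lowest of the 5. The part of neuron content in these differences was not tested.

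**Figure D2:**
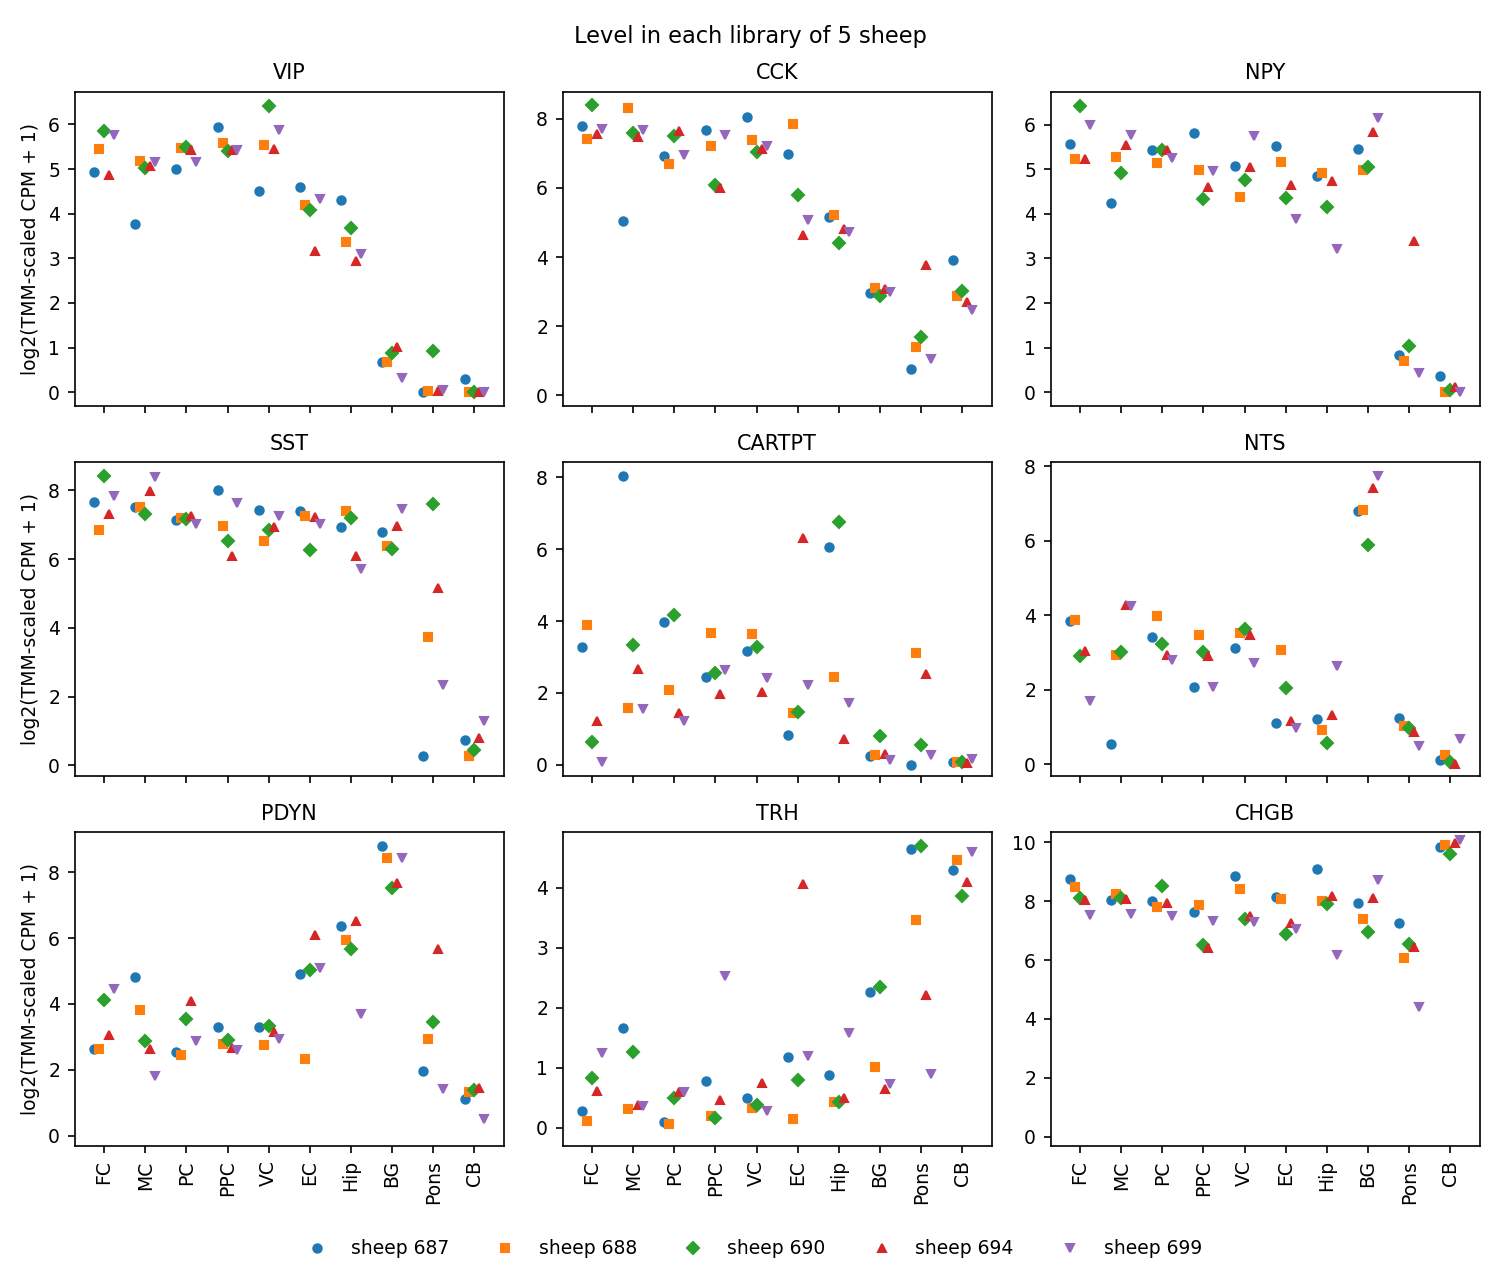
Level of VIP, CCK, NPY, SST, CARTPT, NTS, PDYN, TRH and CHGB in every sheep brain library as log2(TMM-scaled CPM + 1), by region, 1 point per animal. PDYN and NTS in basal ganglia and CHGB in cerebellum are the genes shown whose 5 libraries of 1 region all lie above every other library.

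Among the other neuronal peptides, PDYN and NTS were higher in basal ganglia, and ADCYAP1, GRP and UCN were lower there. PDYN, prodynorphin, the opioid precursor of striatal projection neurons, measured 445, 342, 182, 204 and 344 CPM there, and its next highest library in any region held 90.8 CPM. NTS, neurotensin, which modulates dopamine signalling, measured 111, 114, 58.8, 172 and 212 CPM, against at most 18.6 CPM elsewhere. All 5 basal ganglia libraries thus lay above all 45 others for both genes (log2 fold change 5.36, SE 0.32, adjusted p = 4.1e-18 for NTS, and log2 fold change 4.83, SE 0.33, adjusted p = 3.1e-16 for PDYN). Striatal neuron markers were highest in the same region, at 1147 to 3106 CPM with 5 of 5 markers over 1 CPM, and their part in the 2 differences was not tested. PDYN was higher in hippocampus as well, with 81.1, 60.9, 49.4, 90.8 and 12.1 CPM (log2 fold change 2.2, SE 0.38, adjusted p = 6.8e-05), where dentate granule cells are known to make dynorphin. Sheep 699 had the lowest hippocampal value, and the hippocampal range overlapped that of entorhinal cortex, 29.3, 4.07, 31.8, 67.7 and 33.3 CPM. Both genes were lower in cerebellum (-3.91 for PDYN and -5.20 for NTS) and NTS also in pons (-2.62).

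ADCYAP1, the precursor of PACAP, had the opposite direction in basal ganglia: it measured 0.137, 0.275, 0.374, 0.343 and 0.312 CPM in basal ganglia and 24.5, 10.2, 100.4, 37.2 and 1.86 CPM in pons. No basal ganglia library exceeded 0.374 CPM, and the 1 library of another region below that was entorhinal cortex of sheep 699 at 0.244 CPM, while pons spanned 1.86 to 100.4 CPM. ADCYAP1 was lower in basal ganglia (log2 fold change -5.51, SE 0.86, adjusted p = 2.0e-06) and higher in pons (log2 fold change 2.16, SE 0.44, adjusted p = 7.0e-05) and frontal cortex (1.62). Its frontal call was lost without sheep 690 or 694 (log2 fold changes 1.64 and 1.49, adjusted p = 0.07 and 0.13), and a lower value in cerebellum (-1.52) was lost without sheep 687, 688, 690 or 694 (log2 fold changes -1.49, -1.43, -1.24 and -1.44, adjusted p = 0.076, 0.068, 0.11 and 0.093). GRP, gastrin-releasing peptide, measured 0.0457, 0.0183, 0.0220, 0 and 0.0480 CPM in basal ganglia, 0.824, 0.423, 3.43, 1.40 and 3.78 CPM in frontal cortex and 3.86, 2.24, 1.97, 2.79 and 0.332 CPM in hippocampus. It was lower in basal ganglia (-5.13, adjusted p = 5.6e-05) and cerebellum (-2.39, adjusted p = 0.0042) and higher in hippocampus (1.90, adjusted p = 0.0065) and frontal cortex (1.69, adjusted p = 0.023). The hippocampal call was lost without sheep 694 (log2 fold change 1.81, adjusted p = 0.052) and the frontal call without sheep 690, 694 or 699 (log2 fold changes 1.53, 1.82 and 1.23, adjusted p = 0.14, 0.067 and 0.13).

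NMB, neuromedin B, ranged over 0.172, 1.55 and 9.95 CPM in the 50 libraries. It was higher in motor cortex (1.58, adjusted p = 5.6e-05), where sheep 694 and 699 held 6.12 and 9.95 CPM and the other 3 held 1.89 to 2.25 CPM, and lower in cerebellum (-2.87, adjusted p = 9.9e-09), whose libraries all lay below those of every other region. UCN, urocortin, a CRH relative made in the Edinger-Westphal nucleus of the midbrain, measured 0.299, 3.15, 3.78, 0.193 and 0.416 CPM in pons. Sheep 688 and 690 were high and the other 3 were within the range of the cortex. UCN was higher in pons (log2 fold change 1.75, SE 0.37, adjusted p = 1.2e-04), a call lost without sheep 690 (log2 fold change 1.07, adjusted p = 0.06), and lower in basal ganglia (-1.85, adjusted p = 0.0073). Midbrain and hindbrain markers in those 5 pons libraries summed to 6.53 CPM in sheep 687, 49.4 in 688, 84.7 in 690, 18.2 in 694 and 39.2 in 699. GAL, galanin, stayed at or below 1.10 CPM and RLN3, relaxin-3, the peptide of the nucleus incertus, at or below 0.594 CPM in every library, both with their highest mean in pons; neither was tested.

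Peptides best known from the hypothalamus were mostly low in these regions, none of which is the hypothalamus; TRH and CARTPT were the exceptions, above 10 CPM in some libraries. Hypothalamic markers were low throughout: 2 of 10 passed 1 CPM in basal ganglia, 1 of 10 in pons and 0 of 10 in the other 8 regions, and their sum was 5.18 to 9.74 CPM in basal ganglia against 0.282 to 3.56 CPM elsewhere. TRH, thyrotropin-releasing hormone, measured 18.5, 20.9, 13.5, 16.1 and 23.0 CPM in cerebellum and 24.1, 10.0, 24.9, 3.63 and 0.850 CPM in pons. The cerebellar libraries were close together, whereas those of pons ranged from below 1 CPM to above the cerebellum. TRH was higher in both (cerebellum log2 fold change 3.92, SE 0.49, adjusted p = 4.1e-09; pons log2 fold change 3.32, SE 0.51, adjusted p = 6.0e-07). Entorhinal cortex of sheep 694 held 15.6 CPM, and the median over all 50 libraries was 0.697 CPM.

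CARTPT, the precursor of the CART appetite-related peptide, was set by single libraries. In motor cortex it measured 259, 1.97, 9.06, 5.30 and 1.95 CPM and in hippocampus 65.5, 4.43, 107, 0.653 and 2.32 CPM. The motor library of sheep 687 and the hippocampal libraries of sheep 687 and 690 were high, and entorhinal cortex of sheep 694 held 78.5 CPM. CARTPT was called higher in motor cortex (log2 fold change 4.06, SE 0.69, adjusted p = 1.7e-04) and hippocampus (log2 fold change 3.37, SE 0.72, adjusted p = 0.0012), but the first call was lost without sheep 687 (log2 fold change 0.49, adjusted p = 0.78) and the second without sheep 690 (log2 fold change 2.39, adjusted p = 0.11). In basal ganglia it measured 0.183, 0.220, 0.749, 0.242 and 0.0960 CPM and was lower (-4.31, adjusted p = 0.018), a call lost without sheep 688 (log2 fold change -4.06, adjusted p = 0.051); it was lower in cerebellum (-6.73, adjusted p = 7.0e-04). Choroid plexus markers in motor cortex of sheep 687 summed to 795 CPM, as given above, and their part in its CARTPT value was not tested.

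AGRP, agouti-related peptide, the appetite-promoting antagonist of melanocortin receptors, measured only 0.365, 0.238, 0.286, 0.303 and 0.528 CPM in basal ganglia and was higher there (log2 fold change 1.45, SE 0.28, adjusted p = 5.4e-05). It stayed at or below 0.528 CPM in all 50 libraries. AVP, vasopressin, ranged over 0.444, 1.43 and 6.21 CPM, with its highest value in hippocampus of sheep 688, and was lower in basal ganglia (-1.33, adjusted p = 0.0017). HCRT, the orexin precursor, ranged over 0.0214, 0.492 and 2.26 CPM and was lower in cerebellum (-2.81, adjusted p = 0.0041). POMC, the precursor of ACTH, melanocortins and beta-endorphin, was the flattest member, at 0.563, 1.49 and 2.63 CPM, and was called in no region. OXT, oxytocin, stayed at or below 0.183 CPM and PMCH, the melanin-concentrating hormone precursor, at or below 0.188 CPM.

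Among peptides that also act in peripheral tissues, APLN, NPPC and NPB each had 1 region above all others. APLN, apelin, the ligand of the apelin receptor on vessels and neurons, measured 29.3, 33.5, 32.1, 18.7 and 27.4 CPM in pons against at most 11.9 CPM in any other library (log2 fold change 2.56, SE 0.18, adjusted p = 3.5e-15). It was lower in cerebellum (-1.0, adjusted p = 6.5e-04), a call lost without sheep 694 or 699 (log2 fold changes -0.94 and -0.77, adjusted p = 0.0041 and 0.0071). NPPC, C-type natriuretic peptide, measured 44.1, 30, 20.8, 35.5 and 31.1 CPM in basal ganglia, and the next highest library elsewhere held 19.7 CPM (log2 fold change 2.76, SE 0.16, adjusted p = 6.0e-19). In posterior parietal cortex NPPC measured 3.66, 3.18, 2.23, 2.7 and 3.09 CPM and was lower (-1.06, adjusted p = 0.0013), a call lost without sheep 690 (log2 fold change -0.99, adjusted p = 0.022). NPB, neuropeptide B, measured 11.7, 11.5, 9.98, 13.8 and 12.2 CPM in cerebellum against at most 7.77 CPM elsewhere (log2 fold change 1.09, SE 0.087, adjusted p = 1.6e-14). All 5 libraries of the named region lay above all 45 others for APLN, NPPC and NPB. NMU, neuromedin U, measured 0, 0.350, 0.456, 1.19 and 0.0904 CPM in pons and 0.720, 0.0833, 0, 0 and 2.2 CPM in posterior parietal cortex. Its values were at or near 0 in most regions, and it was called higher in pons (2.68, adjusted p = 5.8e-04) and posterior parietal cortex (3.24, adjusted p = 4.5e-04), the latter lost without sheep 699 (log2 fold change 1.48, adjusted p = 0.23). NMS, neuromedin S, a peptide of the suprachiasmatic nucleus, stayed at or below 0.169 CPM.

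Granins were detected in every region, and their calls fell in cerebellum and pons. All 7 passed 1 CPM in at least 80% of the libraries of each region. CHGB, chromogranin B, measured 916, 954, 767, 1000.3 and 1065 CPM in cerebellum, and the highest library of any other region held 543 CPM. In the same cerebellar libraries CHGA, chromogranin A, measured 60.1, 67.0, 95.8, 97.5 and 106 CPM and SCG2, secretogranin II, 42.8, 48.0, 95.2, 34.0 and 76.8 CPM. These 2 relatives were at their lowest regional means where CHGB was at its highest. CHGB was higher in cerebellum (log2 fold change 2.15, SE 0.24, adjusted p = 2.2e-10), while CHGA (log2 fold change -1.48, SE 0.30, adjusted p = 3.6e-05), SCG2 (log2 fold change -2.12, SE 0.36, adjusted p = 2.8e-06) and PCSK1N, proSAAS, the inhibitor of prohormone convertase 1 (log2 fold change -1.28, SE 0.16, adjusted p = 2.6e-09), were lower. VGF, an activity-regulated granin, SCG3, which binds chromogranin A in the vesicle, and SCG5, the chaperone of prohormone convertase 2, were not called in cerebellum, at 0.27, -0.37 and 0.079.

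In pons 4 of the 7 granins were lower: CHGB (-1.73, adjusted p = 4.0e-05), SCG3 (-1.39, adjusted p = 1.0e-06), SCG5 (-1.28, adjusted p = 9.8e-06) and VGF (-1.25, adjusted p = 0.0017). CHGB measured 152, 66.1, 91.4, 86.6 and 20.2 CPM in pons and SCG3 77.5, 44.4, 47.9, 28.6 and 20.5 CPM. Sheep 699 had the lowest value for both, and for SCG2, SCG5, VGF and CHGA in pons as well. In that library the 5 neuron markers summed to 331 CPM against 1077 to 2214 CPM in the other 4, and oligodendrocyte markers to 91091 CPM, the highest of the 5; their part in the granin levels was not tested. The members called in the other 8 regions include no granin.

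The receptors and the vesicle machinery of these peptides also differed by region. Of 41 receptor genes listed, 38 were tested, and of 20 processing and dense-core vesicle genes, 19. Counts include every called gene, but names are given only for genes that reached 1 CPM in the higher group. This leaves MC3R (higher) and HCRTR2 (lower) unnamed among the largest fold changes in basal ganglia. In cerebellum it leaves out GALR1 and NMUR2, both lower by more than OPRK1. In basal ganglia 7 receptors were higher and 8 lower: SSTR5, a somatostatin receptor (4.23 against 0.231 CPM, log2 fold change 4.42), OPRK1, the dynorphin receptor (64.9 against 11.2 CPM, 2.92), VIPR1 (2.36) and MCHR1 (1.94) led the higher ones, and RXFP3, the relaxin-3 receptor (-2.67), CRHR2 (-2.25), SSTR3 (-2.18) and MC4R (-1.83) the lower ones. In basal ganglia OPRK1 was thus higher together with its ligand precursor PDYN, and VIPR1 was higher although VIP was lower. Elsewhere VIPR1 did not run against VIP. It was higher in frontal (1.59), prefrontal (1.19) and visual cortex (1.30), where VIP was higher. It was lower in pons (-4.24) and cerebellum, where VIP was lower. In motor, posterior parietal and entorhinal cortex VIP was higher and VIPR1 was not called. Among processing genes 2 were higher in basal ganglia, BAIAP3 (2.26) and PTPRN (1.91), and 3 lower, among them prohormone convertase PCSK1 (2.87 against 57.4 CPM, -3.98) and the vesicle-priming factor CADPS2 (-4.25).

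In cerebellum 4 receptors were higher, CRHR1 (96.8 against 13.6 CPM, 3.03), SSTR3 (30.7 against 4.88 CPM, 2.76), GALR3 (2.47) and AVPR2 (1.31), and 20 were lower, led by NTSR1 (-5.39), NPY2R (-4.84), SSTR1 (-4.54) and OPRK1 (-3.73). CRHR1 and SSTR3 were high in a region where CRH and SST themselves were near 0. There 2 processing genes were higher, CADPS2 (2.85) and SYT4 (2.00), and 5 lower, among them PAM, the peptide-amidating enzyme (-2.49). In pons 7 receptors were higher, including APLNR (1.47), VIPR2 (1.77), HCRTR2 (1.67) and NPR3 (1.42), and 14 lower, including VIPR1 (-4.24) and SSTR1 (-3.25). Processing genes in pons were higher in 3 cases (PCSK6 2.85, CPD 1.94 and BAIAP3 1.08) and lower in 7. In the cortical areas 0 receptors were lower; 7 were higher in frontal, 4 in entorhinal, 4 in visual, 3 in motor, 2 in prefrontal and 0 in posterior parietal cortex by edgeR, where 5 had an unadjusted p under 0.05. SSTR1 was among the higher ones in frontal (1.71), motor (1.84), prefrontal (1.30), visual (1.61) and entorhinal cortex (1.12). Hippocampus had 6 higher, NPY2R first (2.18), and 2 lower, CRHR1 (-1.73) and VIPR1 (-1.68).

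By a threshold of 1 CPM of the plain library total in at least 80% of a group's libraries, 13 members were detected in all 10 sheep regions (APLN, CCK, CHGA, CHGB, NPB, NPPC, PCSK1N, PDYN, POMC, SCG2, SCG3, SCG5 and VGF), 13 in 1 to 9 regions and 9 in none (AGRP, GAL, HCRT, NMS, NMU, OXT, PMCH, RLN3 and UCN). The number detected ran from 15 in cerebellum to 24 in entorhinal, motor, prefrontal, posterior parietal and visual cortex. Of all genes in the table, 47.6% to 49.5% were detected per region.

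In whole rat brain 27 of 35 members were detected in each sex, the same 27 genes. The 8 others were UCN, RLN3, PMCH, POMC, AGRP, NMU, NMS and NPB. Of all rat genes, 38.5% were detected in female and 40.7% in male brain. Among the granins, SCG3 measured 163, 185 and 207 CPM (lowest, median and highest) in males and 176, 196 and 209 CPM in females, and CHGB 282, 326 and 375 and 282, 356 and 379 CPM. Of the interneuron peptides, SST was at 65.5, 97.2 and 129 CPM in males and 46.8, 91.3 and 153 CPM in females and VIP at 12.6, 18.0 and 24.4 and 11.8, 18.6 and 25.8 CPM. OXT spread over 0.377, 17.0 and 151 CPM in males and 1.09, 19.1 and 100.3 CPM in females. AVP had 1.58, 8.28 and 142 CPM in males and 0.991, 8.59 and 30.2 CPM in females. The ranges of the sexes overlapped for every one of these genes.

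No member passed the edgeR quasi-likelihood test between male and female rat brains (0 of 33 tested, against 0.0583% of all genes, 0.0438% higher and 0.0146% lower in males). Of these, 8 had an unadjusted p under 0.05: HCRT, ADCYAP1, VGF, CRH, APLN, NPPC, SCG2 and CHGB, all with a lower male mean. Of all 20570 genes tested, 9.89% had an unadjusted p under 0.05, 903 with a lower and 1131 with a higher male mean. HCRT had the largest of these differences (male minus female log2 log2 fold change -0.80, SE 0.24, adjusted p = 0.21, edgeR), with 1.63, 2.72 and 6.51 CPM in males and 1.90, 4.38 and 14.0 CPM in females. DESeq2 called 1 member, POMC, lower in males (log2 fold change -2.25, adjusted p = 0.011), whereas edgeR gave -0.26 (adjusted p = 0.95); the male library of rat 9 held 29.6 CPM of POMC, the highest of all. AVP had opposite signs in the 2 tools (0.75 by edgeR and -0.29 by DESeq2), with the male library of rat 15 at 142 CPM. Receptors and processing genes showed 0 of 39 and 0 of 20 calls by edgeR, with 7 and 3 at an unadjusted p under 0.05. Without the brain libraries of rats 1 and 4, edgeR again called 0 members.

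OXT and AVP, which neighbouring cell types of the supraoptic and paraventricular nuclei make, moved together from brain to brain. Log2(CPM + 1) of the pair had Pearson's r = 0.859 and Spearman's rho = 0.914 over 15 male brains (permutation test, two-sided, Pearson adjusted p = 0.0027 over 10 pairs), and r = 0.745 without the 2 brains farthest from the OXT median. In 14 female brains r was 0.957 and rho 0.943 (permutation adjusted p = 0.0001, the smallest that 100000 permutations over 10 pairs can give), and r was 0.949 without the 2 farthest. The 10 pairs per sex were those among OXT, AVP, HCRT, AGRP and POMC, and OXT with AVP was the 1 pair of 10 that passed in each sex. Hypothalamic markers summed to 3.47 to 12.4 CPM in male and 3.58 to 18.4 CPM in female brains, with 3 of 10 over 1 CPM in each; how much hypothalamus a sample held was not tested as a part of the relation.

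POMC in rat brain was low in most animals and high in a few. It measured 0.0754, 0.642 and 29.6 CPM in males and 0.202, 0.938 and 14.9 CPM in females. The highest values were 29.6 CPM in male 9, 14.9 CPM in female 23, 9.29 CPM in female 27 and 5.29 CPM in female 18. The 9 pituitary markers, among them growth hormone and prolactin, summed to 16.6, 41.2, 8.88 and 13.7 CPM in these 4 libraries, over 1.08 to 17.6 CPM in all males and 1.24 to 41.2 CPM in all females, with LHB at 0 in both sexes. Other brains had high sums with little POMC: 23.7 CPM in female 25 (POMC 2.22 CPM), 17.6 CPM in male 5 (0.642 CPM) and 15.8 CPM in female 28 (1.03 CPM). Prolactin reached 31.6 CPM in female 23 and growth hormone 11.5 CPM in male 9, while both were at 0 in female 27. Pituitary carry-over was not tested as a part of the POMC values. PMCH had 0 counts in all 58 rat libraries; the RefSeq span of Pmch (chr7:24399404-24400720, GRCr8) lies inside that of Parpbp (chr7:24398897-24468330), how reads in overlapping genes were counted is not given in the sources used here, and the zeros cannot be read as absence.

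**Figure D3:**
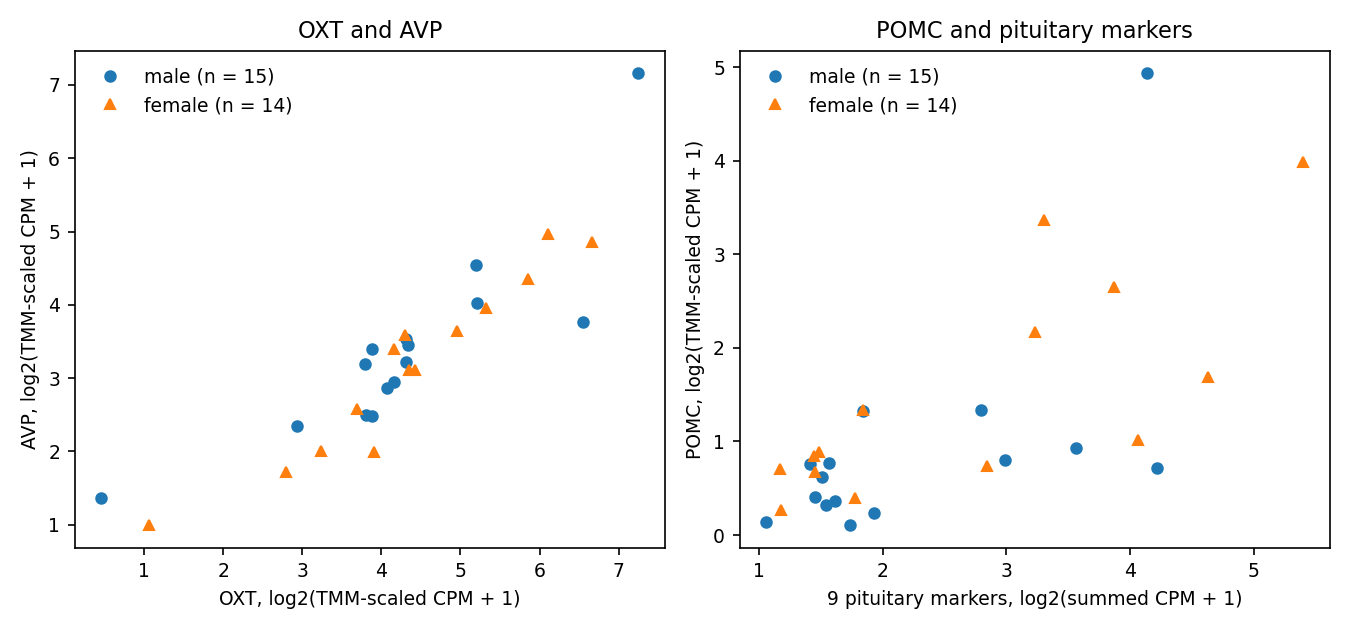
Left, AVP against OXT in each rat brain, and right, POMC against the sum of 9 pituitary markers, all as log2(TMM-scaled CPM + 1), with circles for the 15 males and triangles for the 14 females. OXT and AVP rise together (r = 0.859 in males and 0.957 in females); the 4 brains with the highest POMC hold 8.88 to 41.2 CPM of pituitary markers, and 3 other brains with 15.8 to 23.7 CPM of them have 0.642 to 2.22 CPM of POMC.

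In rat ovary, 8 members were detected (PNOC, PDYN, GAL, NPPC, APLN, SCG3, SCG5 and PCSK1N), against 37.9% of all genes. Compared with the brains of the same 14 females, 26 members were lower, 1 (NMU) was higher and 5 were not called, of 32 tested (background 56.9% of all genes called, 27.7% higher and 29.2% lower). The median log2 fold change was -6.0 over the members and 0.02 over all genes. For 21 of the 26 lower members the highest ovary value lay below the lowest brain value. The same held for 4951 of the 6069 genes called lower among all genes tested. Over everything tested, that is 21 of 32 members against 23.8% of genes. PDYN, RLN3, AGRP, OXT and AVP overlapped. Granulosa, theca and luteal, and oocyte markers were all present in ovary (5 of 5 each), so the label held.

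APLN measured 12.8, 44.4 and 113 CPM (lowest, median and highest) in ovary and 19.3, 26.4 and 32.9 CPM in brain. It was higher in ovary by less than the required size (log2 fold change 0.87, SE 0.18, adjusted p = 6.9e-05, edgeR) and the ranges overlapped. PNOC measured 2.73, 8.14 and 34.7 CPM in ovary and 4.95, 8.43 and 11.9 CPM in brain, and GAL 2.64, 5.28 and 8.79 CPM and 2.17, 3.71 and 7.03 CPM. NPPC, whose product keeps oocytes in meiotic arrest, measured 3.70, 5.34 and 8.22 CPM in ovary and 4.59, 6.37 and 8.48 CPM in brain. None of these 4 was called, nor was NMB (PNOC 0.57 (adjusted p = 0.084), GAL 0.52 (adjusted p = 0.0049), NPPC -0.17 (adjusted p = 0.18) and NMB -0.82 (adjusted p = 0.0012)). PDYN was detected at 3.00, 6.42 and 12.9 CPM but was lower than in brain (log2 fold change -2.04, SE 0.24, adjusted p = 3.5e-09).

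The granins were lower in ovary without exception. SCG3 measured 2.43, 6.92 and 9.52 CPM there against 173, 210.4 and 226 CPM in brain (log2 fold change -5.09, SE 0.17, adjusted p = 2.4e-22). PCSK1N measured 3.31, 4.03 and 6.63 against 378, 521 and 735 CPM (log2 fold change -6.95, SE 0.13, adjusted p = 6.6e-29), and SCG5 0.420, 1.35 and 2.37 against 243, 369 and 410.4 CPM (log2 fold change -7.95, SE 0.20, adjusted p = 6.9e-26). No ovary library reached any brain library for these 3. Log2 fold changes of the other 4 were -7.95 for SCG2, -8.06 for VGF, -9.01 for CHGB and -10.42 for CHGA. The lowest fold changes in the set were those of SST (-11.59) and CCK (-11.15). Receptors moved likewise, 5 higher and 26 lower of 35, with NMUR2, a neuromedin U receptor (4.95 against 0.376 CPM, 3.67), OXTR, the oxytocin receptor (24.6 against 2.36 CPM, 3.36), APLNR, the apelin receptor (39.2 against 3.92 CPM, 3.33), and VIPR2 (1.45) leading the higher ones. Of 20 processing genes 3 were higher, the widely expressed proteases PCSK5 (2.18), FURIN (2.13) and CTSL (1.57), and 13 were lower, with the neuroendocrine convertase PCSK2 at 0.0518 against 85.2 CPM (-10.62).

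**Figure D4:**
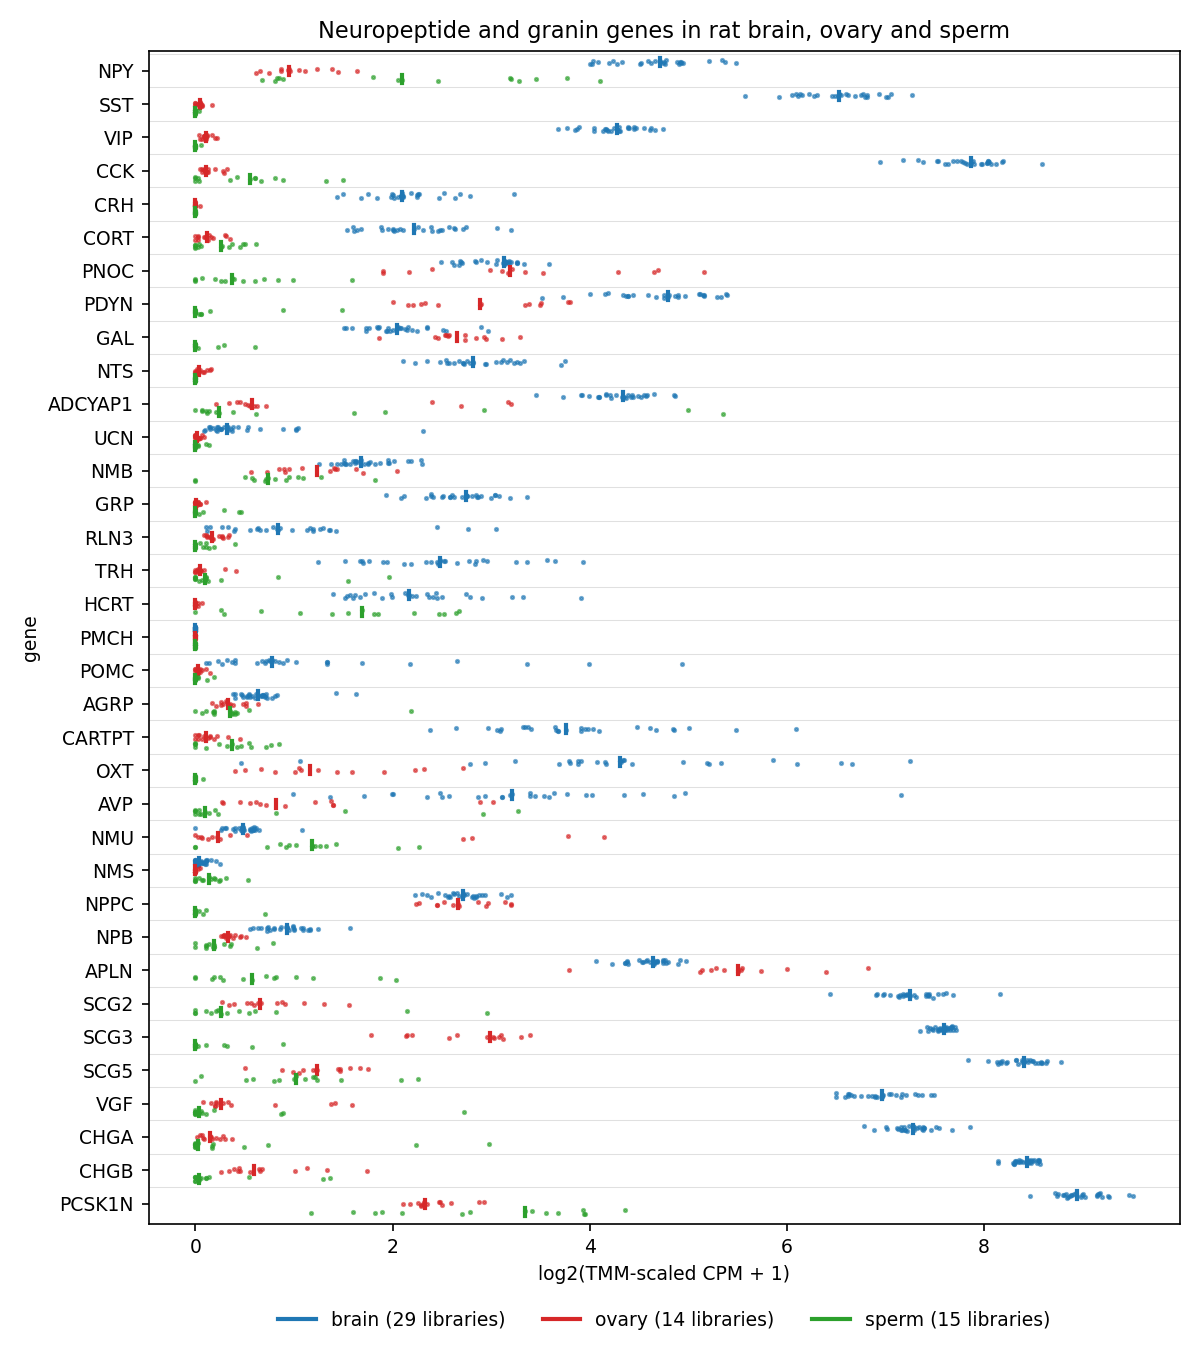
Level of the 35 members in rat brain (29 libraries), ovary (14) and sperm (15) as log2(TMM-scaled CPM + 1), 1 point per library with a bar at the median; levels of different genes are not comparable because gene length was not taken into account. Brain lies far to the right for most members, while ovary reaches or passes brain for PNOC, GAL, NPPC and APLN.

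NMU in ovary was not a shared difference but came from 4 animals. Rats 21, 22, 23 and 25 held 16.7, 12.7, 6.00 and 5.58 CPM, and the other 10 ovaries held 0 to 0.441 CPM, within the brain range of 0 to 0.563 CPM. The unpaired edgeR fit called NMU higher (log2 fold change 2.78, SE 0.83, adjusted p = 0.0028), and the fit with the animal as a block, which pairs each ovary with its own brain, did not (log2 fold change 0.02, adjusted p = 0.99). The same 4 ovaries were chosen after their NMU values were seen, and what follows is a description of them without a test. Their ADCYAP1 values were 7.99, 4.27, 8.22 and 5.49 CPM, against 0.158 to 0.646 CPM in the other 10. Their VGF values were 0.745, 1.66, 2.00 and 1.60 CPM against 0.0575 to 0.281 CPM, and their PNOC values 34.7, 18.5, 24.1 and 24.9 CPM against 2.73 to 10.5 CPM. AVP reached 6.38 and 7.13 CPM in rats 23 and 25. SCG3 went the other way, at 2.43, 3.44, 3.40 and 3.60 CPM against 4.97 to 9.52 CPM. None of these ranges overlapped between the 4 ovaries and the rest for NMU, ADCYAP1, VGF, PNOC and SCG3. LHCGR, the luteinizing hormone receptor, a marker in the theca and luteal list, was lowest in the same 4, at 30.9, 93.5, 101 and 57.4 CPM against 221 to 884 CPM. Other genes of that list did not all follow: HSD3B1 was also lowest in these 4, at 3374, 4904, 4147 and 5070 CPM against 5176 to 7550 CPM, but STAR, at 969.5, 955, 1149 and 1174 CPM, lay inside the range of the other 10, 453 to 2038 CPM. The state of the cycle of each female is not given in the labels, and its part in these values was not tested.

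**Figure D5:**
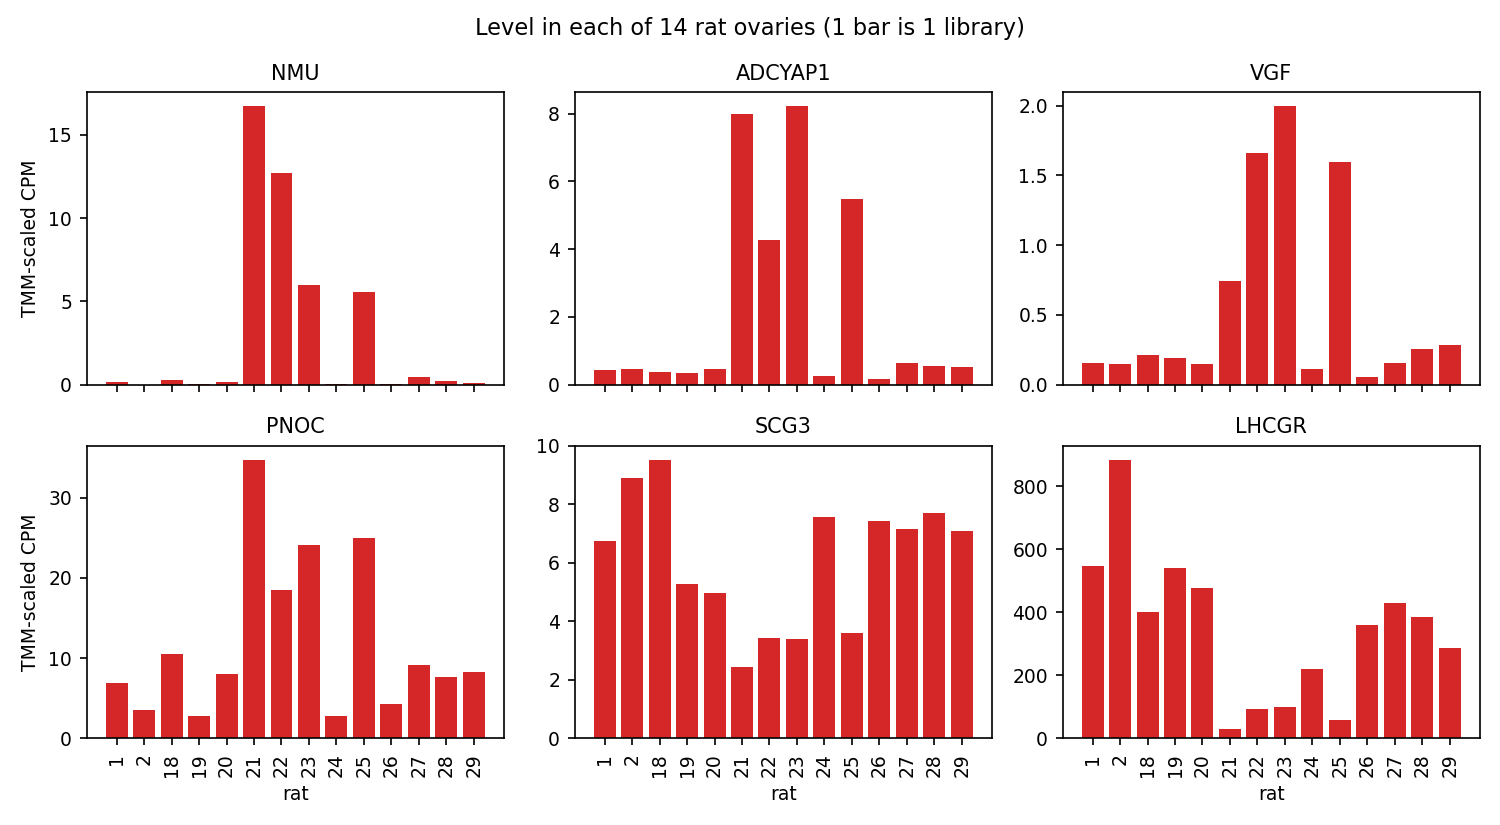
TMM-scaled CPM of NMU, ADCYAP1, VGF, PNOC, SCG3 and the luteinizing hormone receptor gene LHCGR in each of the 14 rat ovaries, 1 bar per library on linear axes from 0. Rats 21, 22, 23 and 25 have the 4 highest values of the first 4 genes and the 4 lowest of the other 2.

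Rat sperm libraries, made from seminal fluid, held few of these RNAs. PCSK1N alone was detected (1 of 35, against 32.1% of all genes). Of 30 members tested against the brains of the same 15 males, 26 were lower, 1 (NMU) was higher and 3 were not called (background 59.1%, 27.7% higher and 31.5% lower), with a median log2 fold change of -6.08 against -0.03 over all genes. For 21 of the 26 lower members no sperm library reached the lowest brain library. The same held for 4546 of the 6448 genes called lower among all genes tested. Over everything tested, that is 21 of 30 members against 22.2% of genes. NPY, NMB, TRH, AVP and NPB overlapped. CRH and NTS had 0 counts in all 15 sperm libraries, which put them at least 911-fold and at least 1821-fold lower than in brain, taking 3 counts over the group as the floor. PMCH also had 0 counts. All 10 spermatid and sperm markers passed 1 CPM as group means, with a sum of 268 to 29946 CPM by library. Single libraries differed widely: TNP1 was at 0 CPM in rat 17 and 5527 CPM in rat 14, and AKAP4 was below 1 CPM in rats 5, 6, 11 and 12. Epididymis markers (5 of 6, 2.18 to 124 CPM), squamous epithelium markers (3 of 4, 5.40 to 128 CPM) and neutrophil and macrophage markers (5 of 5, 13.6 to 139 CPM) were present too. Their part in the member values was not tested.

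PCSK1N measured 1.25, 9.13 and 19.6 CPM in sperm and 435, 505 and 752 CPM in brain (log2 fold change -5.96, SE 0.35, adjusted p = 5.0e-16). NPY measured 0.595, 3.28 and 16.2 CPM in sperm and 15.9, 26.9 and 45.2 CPM in brain (log2 fold change -2.28, SE 0.42, adjusted p = 1.1e-05), so that the highest sperm library just overlapped the brain range. HCRT, with 0, 2.22 and 5.37 CPM in sperm and 1.69, 2.81 and 6.74 CPM in brain, was not called (-0.37, adjusted p = 0.44). NMU measured 0, 1.27 and 3.82 CPM in sperm and 0.204, 0.413 and 1.15 CPM in brain. It was called higher (log2 fold change 1.56, SE 0.45, adjusted p = 0.0024), with overlapping ranges, and was not called with the animal as a block (log2 fold change 1.22, adjusted p = 0.061). ADCYAP1 lay above the brain range of 10.3 to 21.3 CPM in the sperm libraries of rats 14 and 7, at 39.8 and 30.9 CPM, and below it in the other 13, at no more than 6.61 CPM. It was not called (-1.64, adjusted p = 0.07), but was called lower with the animal as a block (log2 fold change -5.48, adjusted p = 0.00012) and by DESeq2 (-3.02, adjusted p = 1.7e-05). In the same libraries of rats 14 and 7 the protamine gene PRM1 was at 5257 and 5512 CPM, the highest of the 15, and AVP at 6.58 and 8.70 CPM. AGRP was likewise not called (-0.38, adjusted p = 0.49) and was called lower with the block (-1.36, adjusted p = 0.011) and without the animals of sperm libraries 16 and 17 (-1.43, adjusted p = 7.5e-05), which were the shallowest. Receptors were lower in 30 cases and higher in 1, NPBWR1, a receptor of neuropeptide B (2.60), of 35 tested. Processing genes were lower in 15 of 20 and higher in 3, FURIN (2.81), PCSK1 (40.1 against 12.5 CPM, 1.67) and SORT1 (1.00).

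In sheep sperm AGRP was the 1 detected member, of 23.3% of all genes detected. AGRP measured 2.69, 37.1, 30.3, 16.1 and 22.2 CPM in sheep 687, 688, 690, 694 and 699, from 20, 458, 92, 145 and 198 counts, and on this scale all 5 libraries lay above all 50 brain libraries. On plain library totals sheep 687 sperm held 0.307 CPM, below the highest basal ganglia library at 0.417 CPM, so the groups overlapped. Of 30 members tested against the mean of the 10 brain regions, 24 were lower, 2 (AGRP and NMU) were higher and 4 (NPB, TRH, NMB and POMC) were not called (background 74.2%, of which 33.1% higher and 41.1% lower). These 4 depended on the scaling: with plain library totals all were called lower (NPB -3.19, TRH -2.78, NMB -2.16 and POMC -2.23), and with upper quartile factors POMC was called higher (1.43, adjusted p = 2.6e-04, edgeR, against 0.58 with TMM). NPB was also called lower without sheep 699 (-1.16, adjusted p = 6.5e-05, edgeR, against -0.71 with all 5 sheep). For 7 of the 24 lower members no sperm library reached the lowest brain library. The same held for 5599 of the 8976 genes called lower among all genes tested. Over everything tested, that is 7 of 30 members against 25.6% of genes. The median was -4.68 against -0.42 over all genes. AGRP was higher (log2 fold change 7.5, SE 0.21, adjusted p = 1.0e-34, edgeR), and higher also with plain library totals (5.18), a scaling that moved the median of all genes by -2.42. NMU measured 0, 1.54, 0.329, 1.44 and 0.449 CPM, from 0, 19, 1, 13 and 4 counts, and overlapped brain; it was higher (log2 fold change 3.56, SE 0.76, adjusted p = 3.6e-05) but not with plain library totals (1.32, adjusted p = 0.11).

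VGF had counts in all 5 sheep sperm libraries, at 5.37, 12.1, 8.89, 11.0 and 4.49 CPM, and was lower than in brain (log2 fold change -3.02, SE 0.40, adjusted p = 1.4e-09). CHGB measured 29.1, 0.405, 0, 3.22 and 5.39 CPM, so that sheep 687 alone was high. UCN, GRP and CARTPT had 0 counts in all 5 sperm libraries, at least 42.2-fold, at least 77.1-fold and at least 1030-fold lower than in brain (floor of 3 counts over the group). HCRT was lower (-3.23, adjusted p = 0.026), a call lost without sheep 687, 688 or 694 (log2 fold changes -2.90, -2.61 and -2.87, adjusted p = 0.069, 0.095 and 0.083). VIP was lower (-4.67, adjusted p = 1.5e-06); without sheep 687, which left no VIP count in cerebellum, the fit returned an adjusted p of 1 (log2 fold change -3.97). The sheep sperm libraries held spermatid markers (10 of 10, 245 to 8219 CPM) and also squamous epithelium markers (5 of 5, 8309 to 148903 CPM, against at most 3.70 CPM in any brain library) and neutrophil and macrophage markers (4 of 5 with CD68 at 0, 13723 to 158112 CPM, against at most 26.5 CPM). Their part in the AGRP and NMU values was not tested. Receptors were higher in 6 and lower in 24 of 38, with NMUR2 among the higher ones (3.63), and processing genes were higher in 4 (CTSL 6.35, PCSK5 4.48, FURIN 2.09 and CCDC186 1.66) and lower in 14 of 19. The differences of FURIN and CCDC186 are smaller than the shift of all genes between TMM and plain library totals given above.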

How the data were processed

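Polyadenylated RNA was sequenced in 113 libraries (55 sheep, 58 rat), and groups were taken from the labels. The authors deposited raw read counts per gene and library; per the submitters' processing notes reads were processed with Trimmomatic 0.39, STAR 2.7.5a and Rsubread 2.20.0 in R 4.4.2, on ARS-UI_Ramb_v3.0 for sheep and GRCr8 for rat. For strand and for overlapping or multi-mapping reads the settings were not stated in what was used here, so counts of overlapping genes (in rat Nmb, Pdyn, Trh, Nmu, Apln, Pomc, Npb, Agrp and Pmch) are uncertain.

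From the counts, edgeR 4.0.16 in R 4.3.3 (TMM factors, filterByExpr, quasi-likelihood tests, prior count 0.125, Benjamini-Hochberg adjustment over all genes tested) gave every fold change, with SE as the fold change divided by the square root of F. A call needs an adjusted p under 0.05 and a log2 fold change of 1 or more in size, except that F-tests over several regions need the adjusted p alone. Fits were made for the 50 sheep brain libraries, sheep sperm with brain, ovary with female brain, rat sperm with male brain, and male with female brain, each on its own CPM scale. DESeq2 1.42.0, other scalings, no filter, a replicate block and leaving out animals were alternatives; those leaving out rats 1 and 4 were added once the data had been seen. The scripts were tested on simulated data.

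Counts set the precision, and intervals or floors cover counting error only. Same numbers mark the same animal in the labels, so numbers pair the samples: same-animal libraries had a median correlation of deviations of 0.157 over 225 sheep brain pairs, against -0.0352 for other pairs, 0.0158 over 14 ovary and brain pairs and 0.0510 over 15 sperm and brain pairs. The members and lists were chosen with earlier results of these data known. Values by library are given for up to 6 members called higher and 4 called lower per region, and for members detected or called higher in ovary and sperm; ordering the rat brain levels per length was not done, as exon lengths were not used here.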

Additional observations from a re-analysis of the deposited data

Results flagged for a closer look

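In 15 of 93 groups of 5 sheep libraries, 1 library stood apart, its gap to the nearest other library exceeding 0.71 of the group's range. That cut-off is passed by about 1 in 20 groups only where values are normally distributed. These CPM values are skewed and some are at 0, and the groups are those of called members. The count of 15 therefore cannot be set against that rate. Sheep 687 accounts for 7 of them. In motor cortex it was low for VIP (12.6 CPM, nearest 31.4) and CRH (0.947, nearest 8.88) and high for CARTPT (259, nearest 9.06). It was high for VIP (0.219, the others 0) and CCK (14.1, nearest 7.10) in cerebellum, for VIP in posterior parietal cortex (60.7, nearest 47.2) and for CCK in visual cortex (265, nearest 167).

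Pons of sheep 694 was high for NPY (9.40 CPM, nearest 1.04) and CCK (12.7, nearest 2.21), and pons of sheep 690 for VIP (0.894, nearest 0.0362). GABA neuron markers in pons of sheep 694 summed to 101 CPM, the highest of the 5 pons libraries, and their part in these values was not tested. Sheep 699 was high in cerebellum for PNOC (1.5, nearest 0.549) and ADCYAP1 (6.33, nearest 3.38). Sheep 688 was high for UCN in basal ganglia (0.238, nearest 0.154) and CRH in prefrontal cortex (11.8, nearest 7.19), and sheep 690 for CARTPT in basal ganglia (0.749, nearest 0.242).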

How the results depend on the processing

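Of the 91 region calls on members, all 91 were kept with RLE factors and with DESeq2, and 90 each with upper quartile factors (CRH in pons lost) and with no filter (APLN in cerebellum lost). Over the 5 fits that each leave out 1 sheep, 413 of 455 calls were kept, 42 were lost and 0 changed direction. Leaving out sheep gave 2 to 4 members in entorhinal cortex, and over all genes 249 to 635 calls in entorhinal, 387 to 627 in frontal, 229 to 456 in motor, 304 to 570 in prefrontal, 322 to 612 in posterior parietal and 281 to 535 in visual cortex, 625 to 1168 in hippocampus and 0 to 6 among the 5 neocortical areas. With the adjusted p alone, 14 members passed in frontal cortex, and over all genes 5830 in basal ganglia, 12839 in cerebellum, 1660 in frontal, 750 in motor, 1334 in prefrontal, 2202 in posterior parietal and 1195 in visual cortex, 2320 in hippocampus and 10211 in pons.

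With the animal as a replicate block, all 91 region calls were kept and 93 were made; the block lost NMU in ovary (0.02, adjusted p = 0.99, edgeR) and in rat sperm (1.22, adjusted p = 0.061), added AGRP and ADCYAP1 as lower in rat sperm, and gave 0 genes among the 5 neocortical areas, as did fitting only their 25 libraries (4 in the fit on all regions). Upper quartile factors lost NPPC and HCRT in sheep sperm and plain library totals lost NMU there and made NPB, TRH, NMB and POMC lower. Over all genes, no filter gave 18799 calls in ovary, 22067 in rat sperm and 19 between the sexes, and DESeq2 gave 18427 in rat sperm and 34 between the sexes (1 member, POMC); without rats 1 and 4 the sexes differed in 22 genes. At 0.5 CPM, 4 members were detected in rat sperm and 2 in sheep sperm. On plain library totals 6 of 10 peptide pairs passed in females. Depth limits members near 0: VIP, NMU and AGRP in several regions rest on few counts.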
